A study of Homo sapiens with 6 samples.

Results

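The genes described here are 33 antioxidant enzymes and targets of the transcription factor NRF2, out of 60564 genes in the deposited count table. They were chosen by name, as rows whose symbol equals a listed gene, and each symbol matched 1 row. Of them, 7 encode proteins of mitochondria (SOD2, PRDX3, PRDX5, TXN2, TXNRD2, GLRX2 and NNT) and the other 26 encode proteins that mostly work outside them. The RNA came from HEK293, an established line of human embryonic kidney cells. The wild-type group (3 libraries, titled NC_HA) carried no named transgene. The other group (3 libraries, titled OE_HA) stably overexpressed SFXN2, a sideroflexin, a family of carriers in mitochondrial membranes. The labels do not spell out NC or HA, nor whether the overexpressing line was 1 clone or the wild type held an empty vector. Separate cultures are not stated for the replicates, so the spread behind each p-value is that of these libraries and may be technical.

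NRF2, the product of NFE2L2, is held in the cytoplasm and sent for degradation by KEAP1, whose reactive cysteines sense oxidants and electrophiles. When KEAP1 is modified, NRF2 protein accumulates, pairs with small MAF proteins and switches on genes that hold an antioxidant response element. Its targets regenerate thioredoxin, glutathione and NADPH. Peroxiredoxins, glutathione peroxidases and catalase remove hydrogen peroxide, and superoxide dismutases make hydrogen peroxide from superoxide. Mitochondria keep their own set of these enzymes, fed with NADPH by NNT. Much of this control acts on protein stability and on oxidation of cysteines, which RNA counts do not measure.

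The antioxidant response element is the sequence through which NRF2 is known to act, so its core, TGACNNNGC, was searched on both strands in windows from 250 bases before to 50 bases after each RefSeq start (GRCh38.p14). In all, 26 of the 33 genes had 39 such windows, since several have more than 1 start. The genes without one were ABCC3, AKR1B10, GSR, PRDX1, PRDX6, SOD1 and TXN2. A match stood in 6 of the 39 windows (15.4%), against 13.3% of 35116 windows of all genes, so the share was near the background. The 5 genes with a match were KEAP1, TXNRD1, PGD, ME1 and GPX2, and none of them is mitochondrial. One match is shown for each, 5′ to 3′ on the gene's strand with the match in capitals, because their RNA ranged from no count at all (GPX2) to 310.5 CPM (PGD in overexpression replicate 1), where CPM are counts scaled to a common library size.
ME1 (chr6:83431169-83431198, minus strand): tctcctgccaTGACTCAGCgcttctcgcag
GPX2 (chr14:64942848-64942877, minus strand): acctgtttttGCTAAGTCAtcctggggatg
TXNRD1 (chr12:104215670-104215699, plus strand): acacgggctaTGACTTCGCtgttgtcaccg
PGD (chr1:10398853-10398882, plus strand): cctcgccgggGCAATGTCAtctaggtgctc
KEAP1 (chr19:10502783-10502812, minus strand): gcccggctctGCTTAGTCAtggtgacctgc
The matches shown for GPX2, PGD and KEAP1 read on the opposite strand. KEAP1, ME1 and TXNRD1 had further matches that are not shown, in KEAP1 on the gene's strand. In ME1 the match shown overlaps an AP-1 site, TGANTCA, a motif held by 2 of the 39 windows and by 7.71% of all windows. A match is a description of these letters, and the window does not reach elements farther away.

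Library facts come first. Total counts ran from 32121527 to 41217867 in wild type and from 40043248 to 59963713 with overexpression. SFXN2 itself had 36.6, 27.8 and 44.7 CPM in the wild-type libraries and 1523, 1909 and 1771 CPM in the overexpressing ones, so each library matched its title. All 10 markers expected in HEK293, such as PAX2, NEFL and KRT18, were counted in all 6 libraries, and their summed level was 1343 to 1532 CPM. Summed levels of 10 markers of blood and immune cells were 1.58 to 2.12 CPM in wild type and 1.21, 3.86 and 4.55 CPM in overexpression replicates 1, 2 and 3. Of the red-cell markers among them, HBB was at 0 in all 6 libraries. HBA1 had 10, 13 and 17 counts in wild type and 8, 34 and 63 with overexpression, and HBA2 had 7, 12 and 17 against 8, 31 and 57. ITGAM, a marker of myeloid cells, had 4, 13 and 7 counts against 0, 78 and 90. Other markers of such cells in the list did not follow it. CD14 had 28, 14 and 22 counts against 29, 39 and 33, and LYZ had 3, 2 and 7 against 0, 0 and 10. The 7 neuronal markers summed to 10.4 to 15.5 CPM in wild type and to 14.1, 20.8 and 17.3 CPM. Overexpression replicates 2 and 3 are also the deepest libraries. The part of these markers in any result below was not tested.

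No antioxidant gene differed between the groups at the threshold. In edgeR, 0 of the 30 tested genes passed an adjusted p of 0.05, where 2 of all 18797 tested genes did (0.0106%). The adjusted p of the 30 lay between 0.930 and 0.996. At an unadjusted p under 0.05 the count was also 0, against 2.38% of all tested genes in each direction. DESeq2 likewise called 0 of them, where it called 0.0479% of all genes at the adjusted and 5.22% at the unadjusted level, and so did limma-voom and limma on the deposited log2 table. Log2 fold changes were above 0 for 10 of the 30 genes, against 51.2% of all tested genes. The remaining 3 genes, AKR1B10, ABCC3 and GPX2, had too few counts to be tested. For 27 of the 30 genes the 95% interval stayed between -1 and 1 on the log2 scale, which holds for 72.6% of all tested genes and for 98.2% of those with a mean of 10 CPM or more. The exceptions were OSGIN1, AKR1C1 and AKR1C2, all weakly counted, whose intervals reached past 1 or -1. Missing the threshold does not show that levels were equal.

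**Figure D1:**
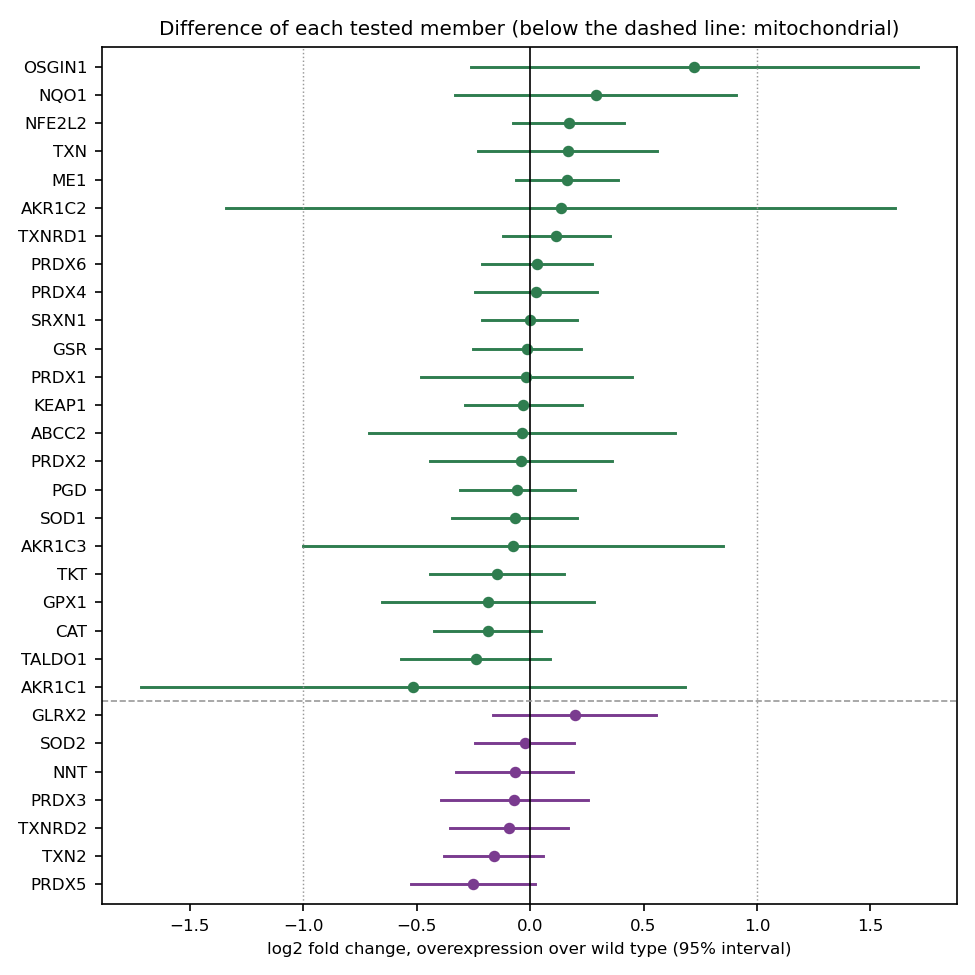
Log2 fold change of each of the 30 tested genes, overexpression over wild type, with its 95% interval from edgeR (n = 3 against 3). Green marks genes outside mitochondria and purple the 7 mitochondrial ones, and every interval crosses 0.

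Both regulators were expressed in every library, and neither passed the test. NFE2L2 (ENSG00000116044, chromosome 2, 177227595 to 177392697 in GRCh38) stood at 91.3, 73.2 and 73.6 CPM in wild-type replicates 1, 2 and 3 and at 90.8, 86.9 and 90.2 CPM with overexpression. All libraries except wild-type replicates 2 and 3 lay within 86.9 to 91.3 CPM, and wild-type replicate 1 overlapped the overexpression group. Its log2 fold change came to 0.17 with an SE of 0.11 (95% interval -0.074 to 0.41). Without wild-type replicate 1 it was 0.27, with an unadjusted p of 0.0228 (edgeR adjusted p = 0.595), in a fit where 7.73% of all genes had an unadjusted p under 0.05. KEAP1 (ENSG00000079999), the adaptor that presents NRF2 to the CUL3 ubiquitin ligase, stood at 68.7, 53.0 and 60.2 CPM in wild type and at 60.4, 55.1 and 62.8 CPM with overexpression. Its groups overlapped fully and its log2 fold change was -0.029 with an SE of 0.11 (95% interval -0.29 to 0.23).

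The thioredoxin system outside mitochondria was carried by TXNRD1, TXN and SRXN1. TXNRD1, the selenoprotein that reduces cytosolic thioredoxin, stood at 182, 149.6 and 174 CPM in wild type and at 180.2, 173 and 194 CPM with overexpression (log2 fold change 0.12, SE 0.11, 95% interval -0.12 to 0.35). TXN, thioredoxin itself, stood at 88.1, 59.3 and 96.2 CPM against 98.1, 77.6 and 97.6 CPM (log2 fold change 0.17, SE 0.18). In both genes the lowest value was that of wild-type replicate 2, and for TXN the change was -0.019 when that library was left out. SRXN1, which repairs over-oxidised peroxiredoxins, ran from 57.5 to 65.5 CPM over the 6 libraries, with a log2 fold change of -0.0024 (SE 0.094).

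The 2 other targets of this kind were low in HEK293. NQO1 (ENSG00000181019, chromosome 16, 69706996 to 69726951), a quinone reductase widely used as a readout of NRF2, stood at only 3.23, 1.94 and 3.70 CPM in wild type and at 3.68, 3.76 and 3.39 CPM with overexpression. Apart from wild-type replicate 2 all its values lay within 3.23 to 3.76 CPM, and the log2 fold change was 0.29 (95% interval -0.33 to 0.91). OSGIN1 (ENSG00000140961, chromosome 16, 83948282 to 83966332), an oxidant-induced growth inhibitor, had the largest change of all 30 tested genes. Its counts were 16, 35 and 50 in wild type and 38, 76 and 135 with overexpression, which is 0.51, 0.85 and 1.41 CPM against 0.98, 1.38 and 2.21 CPM. The groups overlapped, although the overexpression library was higher within each replicate number. Its log2 fold change came to 0.72 with an SE of 0.44 (95% interval -0.26 to 1.71), and it ran from 0.35 to 1.16 when each library was left out in turn.

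Among the enzymes that supply NADPH or its sugar phosphates, none passed the test. The log2 fold change was positive for ME1 and negative for the other 3. ME1 (chromosome 6, 83210389 to 83431071), the cytosolic malic enzyme, stood at 65.8, 55.0 and 63.8 CPM in wild type and at 69.3, 66.5 and 70.7 CPM with overexpression. It was the only one of the 30 genes whose groups did not overlap, higher with overexpression (4.91% of all tested genes were, 4.25% were lower and 9.16% either), and its log2 fold change was 0.16 (SE 0.10, 95% interval -0.060 to 0.39). ME1 is singled out after its values were seen. TALDO1 (ENSG00000177156, chromosome 11, 747329 to 765024), the transaldolase of the pentose phosphate pathway, stood at 145, 113 and 139.9 CPM in wild type and at 134, 94.2 and 109 CPM with overexpression. It was lower with overexpression within every replicate number, while the groups overlapped, and its log2 fold change was -0.24 (SE 0.15, 95% interval -0.57 to 0.088). TKT, the transketolase of the same pathway, was also lower within every replicate number and had a log2 fold change of -0.14 (SE 0.13). PGD, which makes NADPH from 6-phosphogluconate, had one of -0.056 (SE 0.11), with levels of 250.04 to 310.5 CPM over the 6 libraries.

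GPX2 and the detoxifying reductases and export pumps, which NRF2 drives strongly in other cells, were low or close to silent. GPX2, the gastrointestinal glutathione peroxidase, had 0 counts in all 6 libraries. A count of 0 allows up to 3 counts, or 0.050 to 0.093 CPM depending on the library, and covers counting error only. AKR1B10, an aldo-keto reductase, had 0, 0 and 9 counts in wild type and 0, 11 and 19 with overexpression. ABCC3, an export pump for conjugates, had 0, 3 and 0 counts against 2, 4 and 12. Both had more counts in overexpression replicates 2 and 3, the deepest libraries, and neither could be tested.

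The related genes AKR1C1, AKR1C2 and AKR1C3 had 7 to 50 counts per library. AKR1C1 stood at 0.95, 1.21 and 0.40 CPM in wild type and at 1.00, 0.49 and 0.33 CPM with overexpression, giving the lowest log2 fold change among the 30 (-0.52, SE 0.54, 95% interval -1.72 to 0.68). AKR1C1 and AKR1C2 share 98.0% of their coding bases, and AKR1C3 shares 91.4% with AKR1C1, so their counts may be split between them and are uncertain. AKR1C2 ran from 0.11 to 0.70 CPM and AKR1C3 from 0.33 to 0.61 CPM over the 6 libraries, and each was lowest in overexpression replicate 3. ABCC2, the apical export pump, had 74, 184 and 159 counts in wild type and 109, 225 and 252 with overexpression, with a log2 fold change of -0.037 (SE 0.30).

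**Figure D2:**
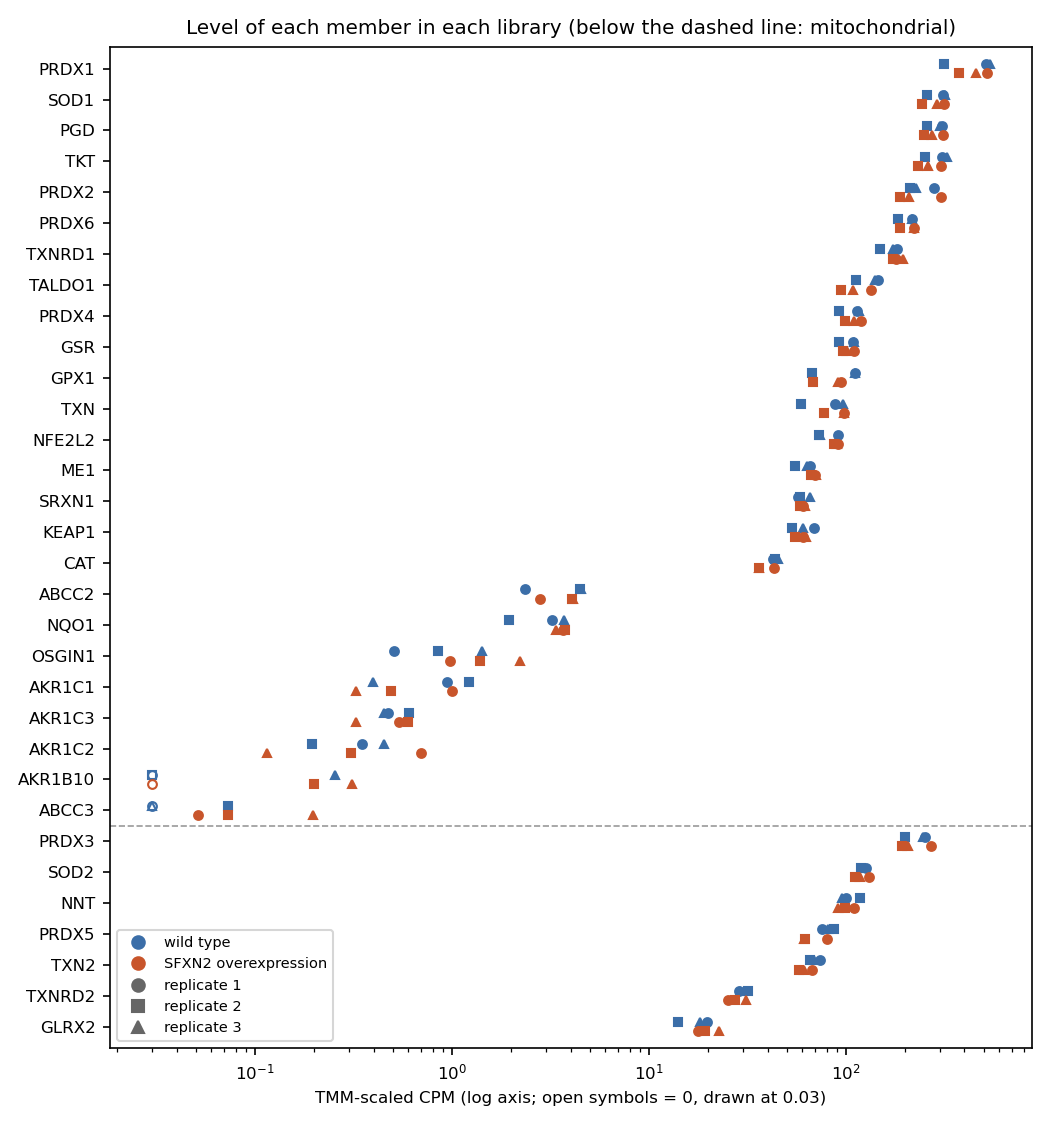
TMM-scaled CPM of 32 genes in each library on a log axis, with wild type in blue and SFXN2 overexpression in orange. GPX2, at 0 throughout, is not drawn, and the strip from ABCC2 down to ABCC3 lies below 5 CPM while the genes from PRDX1 to CAT lie above 36 CPM.

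None of the peroxide-removing enzymes outside mitochondria passed the test. Per kilobase of annotated exon, PRDX1 ranked first of the 33 genes in mean level, at 299.9 (wild type) and 296 (overexpression) CPM per kilobase. SOD1, the cytosolic copper-zinc superoxide dismutase, followed with 147 and 139.9 CPM per kilobase, and PRDX2 came next with 114 and 111. The same 3 led when the length of 1 principal transcript was used in place of all exons. The 6 peroxiredoxins together held 36.6% to 39.3% of the summed CPM of the 33 genes in the wild-type libraries and 37.2% to 40.3% in the overexpressing ones.

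PRDX1, a thioredoxin-dependent peroxidase, stood at 515, 315 and 539.5 CPM in wild type and at 518, 376 and 459 CPM with overexpression. The lowest values were those of replicate 2 in both groups, and the log2 fold change was -0.017 with an SE of 0.20 (95% interval -0.48 to 0.45). It ranged from -0.23 to 0.12 when each library was left out in turn. PRDX2, its cytosolic relative, stood at 279, 212 and 228 CPM against 302, 188 and 209 CPM (log2 fold change -0.040, SE 0.18). SOD1 stood at 312, 259 and 318 CPM against 314, 244 and 289.9 CPM (log2 fold change -0.069, SE 0.12). Replicate 2 was again lowest in each group of both genes. PRDX4, a peroxiredoxin of the endoplasmic reticulum, and PRDX6, which has 1 active cysteine, had log2 fold changes of 0.025 (SE 0.12) and 0.030 (SE 0.11). PRDX4 ran from 91.7 to 119 CPM and PRDX6 from 185 to 221 CPM over the 6 libraries, each lowest in wild-type replicate 2.

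Catalase and the glutathione arm had lower means with overexpression, and none of their genes passed the test. CAT (ENSG00000121691, chromosome 11, 34438925 to 34472062), the peroxisomal catalase, stood at 42.9, 43.7 and 45.0 CPM in wild type and at 43.3, 36.3 and 36.1 CPM with overexpression. Overexpression replicates 2 and 3 lay below all the others and replicate 1 within wild type. Its log2 fold change came to -0.19 with an SE of 0.11 (95% interval -0.42 to 0.050), with the smallest unadjusted p of the genes outside mitochondria (0.109). GPX1, the selenium-dependent glutathione peroxidase, stood at 110.8, 67.2 and 110.6 CPM against 94.9, 67.8 and 91.1 CPM (log2 fold change -0.19, SE 0.21). Replicate 2 was far below replicates 1 and 3 in both groups. GSR, which regenerates glutathione, had a log2 fold change of -0.014 (SE 0.11) at levels of 91.8 to 110.3 CPM.

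None of the 7 mitochondrial genes passed the test. A negative log2 fold change was fitted for 6 of them, against 9175 of all 18797 tested genes. The median of the 7 was -0.069, against -0.017 for the 23 tested genes outside mitochondria and 0.0060 for all tested genes. The median outside mitochondria turned to 0.0080 when libraries were scaled by their size alone, as did the sign of SOD2 (0.0012). PRDX5 (ENSG00000126432, chromosome 11, 64318088 to 64321811), a peroxiredoxin of mitochondria and peroxisomes, had the smallest unadjusted p of the 30 genes (0.0654, edgeR adjusted p = 0.930). It stood at 75.3, 86.7 and 80.7 CPM in wild type and at 79.9, 62.2 and 61.5 CPM with overexpression. As for CAT, overexpression replicates 2 and 3 lay below all other libraries while replicate 1 lay within wild type, and the log2 fold change came to -0.25 with an SE of 0.12 (95% interval -0.53 to 0.020).

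TXN2 (ENSG00000100348), mitochondrial thioredoxin, stood at 73.5, 66.1 and 68.8 CPM in wild type and at 67.3, 57.7 and 61.5 CPM with overexpression. It was lower with overexpression within every replicate number, the only mitochondrial gene of which this holds, with a log2 fold change of -0.16 (SE 0.098, 95% interval -0.38 to 0.059). GLRX2, a glutaredoxin, was the 1 mitochondrial gene with a positive value. It stood at 19.8, 14.1 and 18.3 CPM against 17.8, 19.2 and 22.6 CPM (log2 fold change 0.20, SE 0.16, 95% interval -0.16 to 0.55). Its groups overlapped, and wild-type replicate 2 was the lowest library.

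The other mitochondrial enzymes overlapped between the groups. SOD2 (ENSG00000112096, chromosome 6, 159669057 to 159745186), the manganese superoxide dismutase of the matrix, stood at 126, 119.1 and 120.9 CPM in wild type and at 130.4, 111 and 118 CPM with overexpression. Its log2 fold change was -0.025 (SE 0.097, 95% interval -0.24 to 0.19), and wild-type replicates were as close to each other as 2.96% of their mean (coefficient of variation). PRDX3, the main peroxiredoxin of the matrix, stood at 254, 200.3 and 246 CPM against 269, 193 and 206 CPM (log2 fold change -0.069, SE 0.14, 95% interval -0.39 to 0.25). TXNRD2, which reduces TXN2, and NNT, the transhydrogenase that makes NADPH in the matrix, had log2 fold changes of -0.093 (SE 0.12) and -0.068 (SE 0.12). TXNRD2 ran from 25.2 to 31.9 CPM and NNT from 90.9 to 118 CPM over the 6 libraries, and both were highest in wild-type replicate 2. Per kilobase of exon the highest mitochondrial levels were those of PRDX5 (90.6 CPM per kilobase in wild type), PRDX3 (68.3) and TXN2 (33.9). Per kilobase of 1 principal transcript the order of the first 2 turned, with PRDX3 at 147 and PRDX5 at 90.6 CPM per kilobase. Exons of SOD2 add up to 16493 bases, so its level on that scale was only 7.40 CPM per kilobase in wild type.

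**Figure D3:**
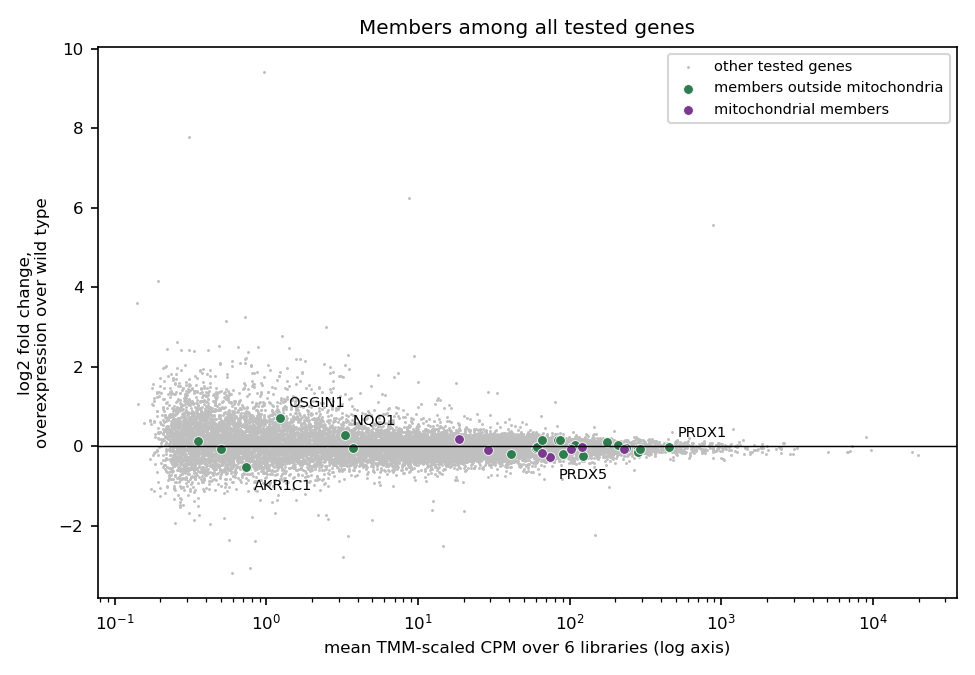
Log2 fold change against mean level for all 18797 tested genes in grey, with tested genes outside mitochondria in green and the 7 mitochondrial genes in purple. The 30 genes lie inside the grey cloud at their level, from -0.52 for AKR1C1 to 0.72 for OSGIN1.

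Differences between libraries were larger than those between groups. The 33 genes summed to 3693, 2981 and 3655 CPM in wild-type replicates 1, 2 and 3 and to 3740 (3739.8), 2969 and 3340 (3340.4) CPM in overexpression replicates 1, 2 and 3. Replicate 2 was thus lowest in each group, by more than the group means differed (3443 ± 401 against 3350 ± 386 CPM, SD, n = 3 each). Mitochondrial genes held 18.3%, 21.3% and 18.0% of that sum in wild type and 18.7%, 19.2% and 17.7% with overexpression. Of the 24 genes with a mean of 10 CPM or more, 11 were lowest in wild-type replicate 2 and 8 in overexpression replicate 2. Among all 10550 genes at that level the shares were 30.5% and 16.2%.

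**Figure D4:**
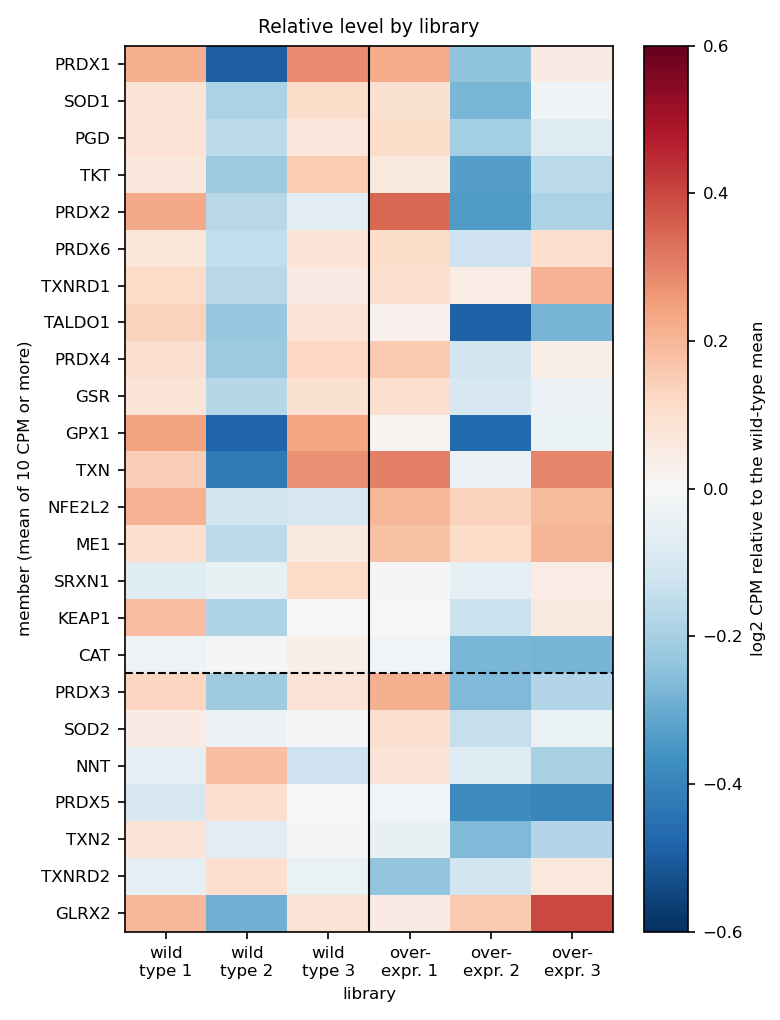
Log2 CPM of 24 genes with a mean of 10 CPM or more in each library, relative to the wild-type mean, with mitochondrial genes below the dashed line. Wild-type replicate 2 and overexpression replicate 2 are blue for most genes, and PRDX5 and CAT are blue in overexpression replicates 2 and 3.

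Libraries with the same replicate number deviated together, so differences were also taken within each number. Overexpression was the higher library for 21 of the 30 genes in number 1, for 14 in number 2 and for 9 in number 3. The median difference in log2 CPM was 0.043, -0.012 and -0.13, against 0.00054, 0.0095 and 0.011 for all tested genes. All 3 numbers had the higher level with overexpression for 4 genes (OSGIN1, TXN, ME1 and PRDX6), where 15.8% of all tested genes did. The lower level was found in all 3 for 3 genes (TALDO1, TKT and TXN2), where 14.4% of all tested genes did. Both counts were near the background. With the replicate number as a block in edgeR, 2 of the 30 had an unadjusted p under 0.05, OSGIN1 (0.0267, log2 fold change 0.75, SE 0.28) and TALDO1 (0.0130, log2 fold change -0.25, SE 0.077). Their adjusted p was 0.599, and in that fit 4.05% of all genes were higher and 4.26% lower at the same level (8.32% in all). At the adjusted level the block called 0 of the 30, against 0.00532% of all genes.

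**Figure D5:**
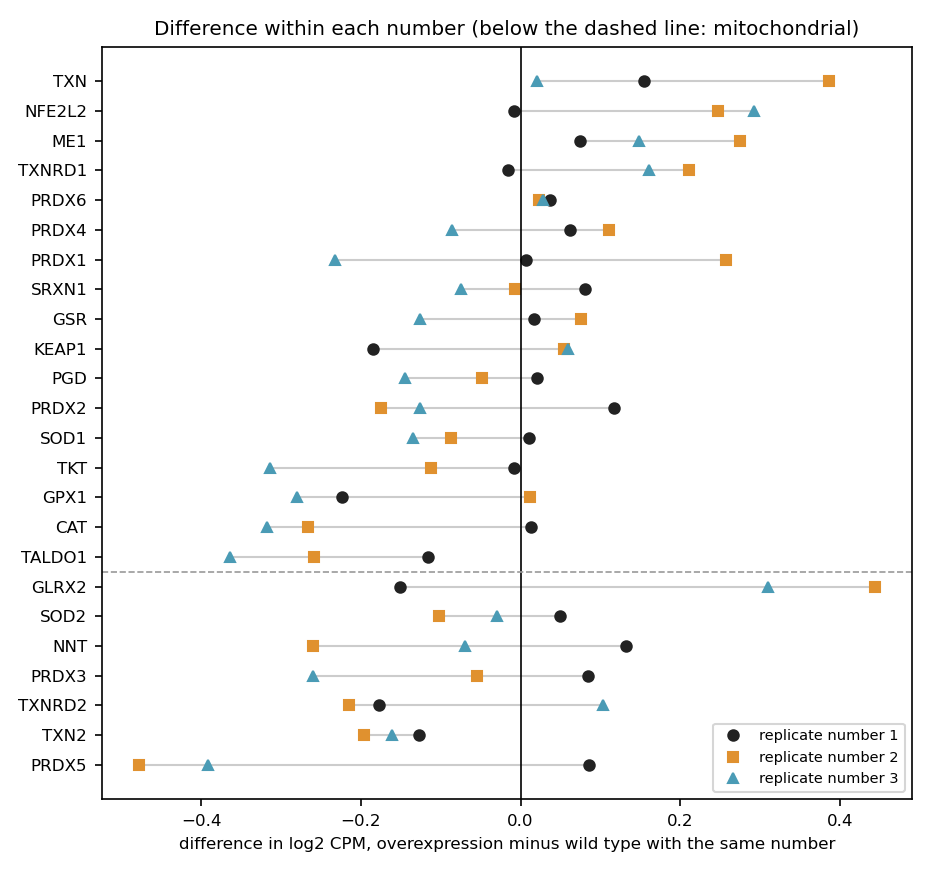
Difference in log2 CPM, overexpression minus wild type, within each replicate number for 24 genes with a mean of 10 CPM or more. TALDO1, TKT and TXN2 lie left of 0 in all 3 numbers and TXN, ME1 and PRDX6 right of 0, while most others fall on both sides.

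Which library was left out changed which genes came closest. In edgeR without overexpression replicate 1, an unadjusted p under 0.05 was reached by 3 of the 30 genes, all lower, against 11.8% of all tested genes. They were PRDX5 (log2 fold change -0.39, edgeR adjusted p = 0.273), CAT (-0.28, adjusted p = 0.345) and TALDO1 (-0.39, adjusted p = 0.355). Without wild-type replicate 2, TALDO1 (-0.35) and GPX1 (-0.39) did, both with an edgeR adjusted p of 0.884, and 4.9% of all genes. Without wild-type replicate 3, OSGIN1 did (1.16, edgeR adjusted p = 0.992), and 2.88% of all genes. Without overexpression replicate 2 or 3, 0 of the 30 reached it, against 1.9% and 1.59% of all genes. Groups did not overlap for 2 to 7 of the 30 genes when a library was left out. The highest count was that without overexpression replicate 1, where 31% of all genes did not overlap. It was 5 without wild-type replicate 1 (24.6% of all genes) and 5 without wild-type replicate 2 (20.2%). It was 3 without wild-type replicate 3 (16%), 3 without overexpression replicate 2 (14.1%) and 2 without overexpression replicate 3 (13%).

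Neighbouring genes of the pathway gave no calls either. Of 18 partners and turnover factors of NRF2, all were tested and 0 passed in edgeR in either direction, with a median log2 fold change of 0.042. The smallest unadjusted p values belonged to 2 small MAF proteins, which pair with NRF2 on DNA. MAFF had 0.63, 1.31 and 0.79 CPM in wild type and 0.64, 3.02 and 2.47 CPM with overexpression (log2 fold change 1.16, SE 0.53). MAFG had 41.7, 38.1 and 46.2 CPM against 40.5, 50.7 and 64.0 CPM (log2 fold change 0.30, SE 0.16). In both, overexpression replicates 2 and 3 were above all other libraries and replicate 1 was not. Of 35 other NRF2 targets, 33 were tested and 0 passed, with a median of -0.087. Values were negative for 25 of the 33, against 9175 of all 18797 tested genes. All were measured in the same 6 libraries, so their signs are not independent. The smallest p values there belonged to FECH, which inserts iron into heme, at 76.4 ± 3.65 and 66.9 ± 5.68 CPM (SD, n = 3 each), and to SLC48A1, a heme transporter, at 18.4 ± 3.64 and 14.9 ± 0.70 CPM (SD, n = 3 each).

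Of 25 other redox enzymes outside mitochondria, 23 were tested and 0 passed in edgeR, with a median log2 fold change of -0.048. TXNL1, a thioredoxin-like protein of the proteasome, averaged 62.7 ± 9.08 and 73.7 ± 3.75 CPM (SD, n = 3 each). It was the only 1 of the 23 whose groups did not overlap, against 9.16% of all tested genes. Of the 33 tested genes among the other NRF2 targets above, 1 was higher and 3 were lower without overlap. Among all tested genes the shares were 4.91% and 4.25%. CCS, the copper chaperone of SOD1, averaged 13.9 ± 1.01 and 12.1 ± 1.47 CPM (SD, n = 3 each). Of 17 other mitochondrial redox genes, 16 were tested and 0 passed, with a median of -0.021. CHCHD4, an import oxidoreductase of the intermembrane space, averaged 27.4 ± 2.40 and 31.6 ± 3.71 CPM (SD, n = 3 each), and UCP2, a carrier of the inner membrane, at 15.7 ± 4.33 and 12.5 ± 1.35 CPM (SD, n = 3 each). At an unadjusted p under 0.05 the 4 lists held 0 of their 90 tested genes, against 4.76% of all tested genes. DESeq2 gave 1, MAFF, where 5.22% of all genes had such a p. The edgeR fit with the block held 6, against 8.32% of all genes. Among those higher with overexpression were MAFF, MAFG, TXNL1 and HMOX1, the heme oxygenase (log2 fold change 0.66, SE 0.14). FECH was among those lower (log2 fold change -0.19, SE 0.084). Their adjusted p with the block was 0.599 to 0.601. HMOX1 is named after its values were seen.

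Some reads near these genes cannot be assigned with certainty, since exons are shared with other genes and the library kit does not mark the strand. SRXN1 shares 2292 exon bases with AL121758.1 on its own strand, and NQO1 shares 575 with AC092115.2 on the other strand. Both of these overlapping genes had 0 counts in every library. OSGIN1 shares 481 exon bases with AC009119.2 on its own strand. NFE2L2 shares 1054 exon bases with AC019080.1 on its own strand, which had 24 to 166 counts per library against 2604 to 5511 for NFE2L2. SOD2 shares 845 exon bases with a second gene model, which had 29 to 161 counts, and 298 bases with WTAP on the other strand. PRDX1 shares 379 bases with MMACHC, and GLRX2 shares 481 bases with TROVE2, which had 1999 to 3614 counts against 580 to 1384 for GLRX2.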

How the data were processed

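RNA of 3 wild-type and 3 SFXN2-overexpressing HEK293 libraries was depleted of ribosomal RNA and sequenced, per the labels' protocols. The submitters' processing notes name Trim Galore 0.4.4 and hg38. No source used here names an aligner or counter. The authors deposited raw counts of 60564 genes, per the file headers. They also deposited log2 values, which are log2(count / constant + 1) with 1 constant for each library.

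Counts were tested in edgeR 4.0.16 (R 4.3.3) with TMM scaling, filterByExpr (minimum count 10, 18797 genes) and the robust quasi-likelihood test, group as the only term, Benjamini-Hochberg adjustment over all tested genes and a threshold of 0.05. CPM are TMM-scaled, and log2 CPM used a prior count of 2. The SE was the log2 fold change over the square root of F. DESeq2 1.42.0 and limma 3.58.1 were alternatives, with other scalings and filters, the replicate block and each library left out. The fits were tested on simulated data. Exon lengths and positions came from GENCODE 29, and promoter windows from RefSeq (GRCh38.p14). The windows were checked to read on the gene's strand in 36 of 39, and the other 3 could not be checked.

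The correlation of deviations from the group means was 0.24, 0.33 and 0.19 for replicate numbers 1, 2 and 3. Between different numbers it ran from -0.26 to -0.074. Each value within a number was above 0.1, so the numbers were read as possibly pairing the libraries. That is a reading of the data from few libraries, since no label says so. The main tests did not use the pairing, which entered only as the replicate block and in the differences within each number. No replicate pair agreed within sampling noise: the lowest chi-square over its degrees of freedom was 17.8. The genes and lists were chosen with earlier results of these data known. Named genes were all 33, with values in full for NFE2L2, KEAP1, NQO1, TXNRD1 and SOD2 and, in each location class, for the 3 with the smallest p, the largest change and the highest level per length. Of each further list, the 2 genes with the smallest p were named. The values of 1 gene of these lists are not reported here. Marker lists of fibroblasts, hepatocytes and endothelial cells summed to at most 21.6, 0.82 and 3.20 CPM in any library.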

Additional observations from a re-analysis of the deposited data

How the results depend on the processing

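No antioxidant gene passed an adjusted p of 0.05 under any alternative run, and the lowest adjusted p was 0.273 (PRDX5 without overexpression replicate 1, edgeR). Of 417 values of single genes under alternatives, 372 kept their sign, and 14 of the 30 genes kept it under every alternative. The median outside mitochondria turned to 0.0080 with library size alone and ran from -0.096 to 0.058 with each library left out. The mitochondrial median was -0.046 with library size alone and ran from -0.14 (without overexpression replicate 1) to -0.022 (without overexpression replicate 3). With the replicate block, 2 of the 30 genes and 1563 of all genes had an unadjusted p under 0.05, and 1 of all genes passed the adjusted threshold. The pairing also brought 6 of 90 genes of the further lists to an unadjusted p under 0.05. DESeq2 called 9 of all genes, and 1458 had an unadjusted p under 0.05 with no low-count filter, where more genes are tested. With library size alone, groups did not overlap for 3 of the 30 (CAT, ME1 and TXN2), against 9.21% of all tested genes. Non-overlap has no value of its own under DESeq2, limma-voom, the filters or the block. Leaving out a library gave 0 to 3 of the 30 genes and 304 to 2295 of all genes at an unadjusted p under 0.05, 1 to 3 of all genes past the adjusted threshold and 2 to 7 of the 30 without overlap.

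Signs turned for the other genes, including AKR1C2 (0.13) and TXN (0.17), and the cause was not tested. With library size alone the log2 fold change was 0.026 for SRXN1, 0.013 for GSR, 0.0080 for PRDX1 and 0.0012 for SOD2. With limma-voom it was -0.19 for AKR1C2, 0.0069 for ABCC2 and 0.010 for PRDX1. With a filter of 1 CPM in 3 samples it was 0.0017 for SRXN1. With the replicate block it was -0.025 for AKR1C2 and 0.010 for PRDX1. With limma on the deposited log2 table it was 0.00036 for SRXN1, -0.072 for AKR1C2, 0.0033 for ABCC2 and 0.011 for PRDX1. With each library left out in turn it ran from -0.29 to 0.12 for ABCC2, from -0.64 to 0.58 for AKR1C2, from -0.26 to 0.15 for AKR1C3, from -0.096 to 0.031 for GSR, from -0.12 to 0.061 for KEAP1, from -0.14 to 0.027 for NNT, from -0.15 to 0.010 for PGD and from -0.23 to 0.12 for PRDX1. The ranges were -0.27 to 0.090 for PRDX2, -0.23 to 0.020 for PRDX3, -0.078 to 0.087 for PRDX4, -0.043 to 0.099 for PRDX6, -0.16 to 0.023 for SOD1, -0.091 to 0.024 for SOD2, -0.046 to 0.058 for SRXN1 and -0.019 to 0.30 for TXN.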
